A study of Mus musculus with 4 samples.

Results

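The kainate receptor genes and their auxiliary subunits are 7 genes, Grik1, Grik2, Grik3, Grik4, Grik5, Neto1 and Neto2, taken by symbol from the 37437 Ensembl genes listed for each library. RNA was sequenced from cortical neurons of mouse grown in primary culture and infected with adeno-associated virus. In the group shCTCF the virus carried a knockdown of Ctcf, the gene of a DNA-binding protein that shapes chromatin loops. In the control group shLAC it carried a knockdown of lacZ, a bacterial gene that mouse cells lack. Each group had 2 libraries, and both groups had received virus. The sources used here do not give the strain, the age of the culture, the time after infection or the share of cells infected. No label states whether a group's 2 libraries are separate cultures. The p-values then measure only how far these libraries spread, and that spread may be technical.

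Kainate receptors are glutamate-gated cation channels assembled from several subunits. The subunits encoded by Grik1, Grik2 and Grik3 can form channels by themselves, whereas those encoded by Grik4 and Grik5 bind agonist with high affinity and need a partner from the first set. Neto1 and Neto2 encode transmembrane proteins that bind the receptor and slow its closing. In cortex these receptors carry slow synaptic currents and also act at nerve terminals, where they tune transmitter release.

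Values are TPM, a length-corrected share of all transcripts, so levels can be compared between genes. TPM keeps no read depth, which leaves the depth unknown and allows no counting interval. Between 12189 and 12839 genes reached 1 TPM per library. The library shLAC replicate 2 stood apart in scale, with a median-ratio factor of 0.832 against 1.05 to 1.10 in the other libraries. In the values as deposited this moved the median log2 fold change of 12816 tested genes to 0.17. Changes are therefore given on scaled TPM, from limma fitted across 11139 coding genes on log2(scaled TPM + 1), a scale that understates the change of low genes. Called means a Benjamini-Hochberg adjusted p below 0.05 over those genes. By that rule 6.51% of the 11139 genes were called, 2.83% higher and 3.68% lower in shCTCF. Ctcf itself was at 8.49 and 7.32 TPM in shLAC and at 3.56 TPM in each shCTCF library, which is 39.3% of the control mean after scaling. The log2 fold change of Ctcf was -1.13 (SE 0.0668, limma adjusted p = 0.00209). The opposite-strand gene Gm5914, which overlaps 370 nt of Ctcf exons, was at 2.4 and 2.53 TPM in shLAC and at 1.38 and 0.95 TPM in shCTCF, and reads of the pair cannot be told apart without strand.

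Every member was expressed at 1 TPM or more in all 4 libraries, and 1 of the 7 was called. Grik4 fell in the knockdown, and 0 members rose. The median log2 fold change of the 7 genes was 0.06, against -0.00 over all 11139 genes in the fit. The order of scaled levels ran from Neto2 (mean 21.8) and Grik2 (19.3) through Grik5 (16.4), Neto1 (11.9) and Grik1 (6.69) to Grik3 (3.37) and Grik4 (2.13). Grik2 and Grik5 overlapped in their ranges over the 4 libraries, and every other pair of neighbours in that order lay apart. Neto2, the highest, stood above 82.8% of the tested coding genes in level, and Grik4, the lowest, above 14.8%. The groups did not overlap in scaled value for 6 members, 4 of them higher and 2 lower in shCTCF. Such separation was common, since it held for 54.8% of all tested genes, 27.6% higher and 27.2% lower.

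**Figure D1:**
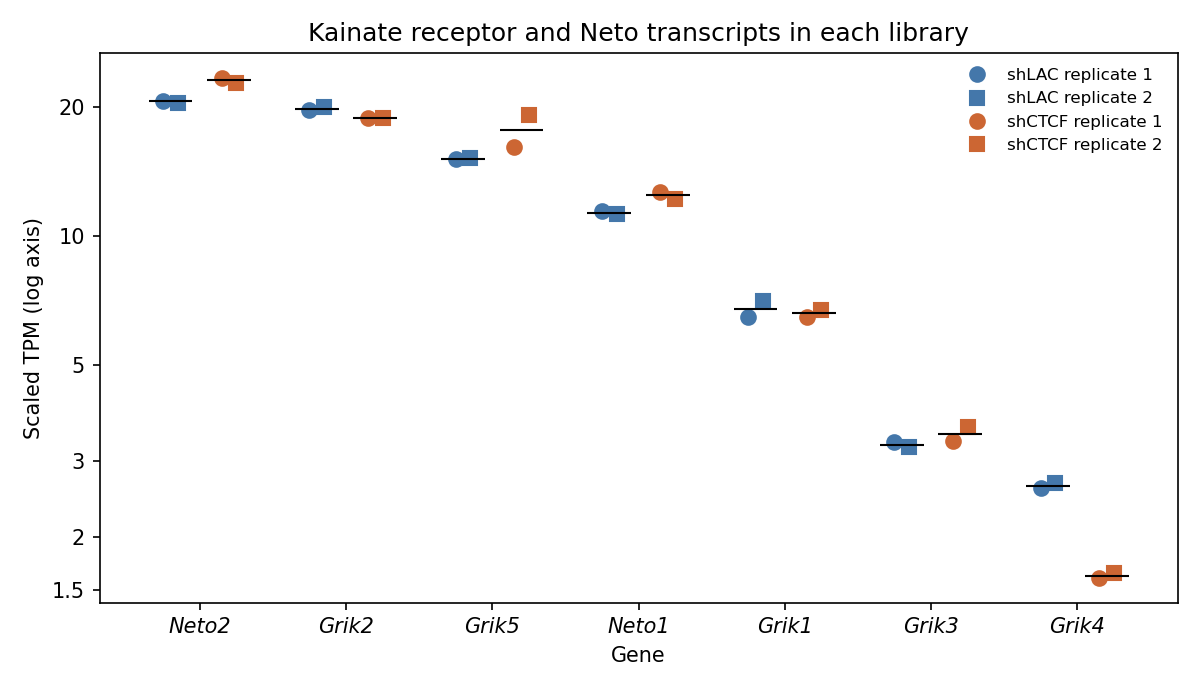
Scaled TPM (log axis) of the 7 genes in each library, with genes ordered by mean; circles are replicate 1, squares replicate 2, blue shLAC, orange shCTCF, and black bars the mean of the 2 libraries of a group. Grik4 sits at 2.60 and 2.66 in shLAC and at 1.61 and 1.64 in shCTCF, the widest gap between groups relative to its level.

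Grik4 (ENSMUSG00000032017, chr9:42518135-42944493, minus strand, GRCm38) encodes a high-affinity subunit that reaches the membrane only with a partner. It was at 2.72 and 2.21 TPM in shLAC and at 1.76 and 1.72 TPM in shCTCF. Both knockdown values lay below both control values, as deposited and after scaling. The scaled mean was 2.63 ± 0.0427 in shLAC and 1.62 ± 0.0256 in shCTCF (SD, n = 2), or 61.8% of control. The log2 fold change was -0.47 (SE 0.0684, 95% interval -0.63 to -0.31, limma adjusted p = 0.0142), which ranked 184 from the lowest among 11139 genes. Grik4 kept its direction in all 14 alternatives and was called in 8. The alternatives reuse the same 4 libraries, and groups that lie apart leave the direction little room to change. The call was lost over all 12816 tested genes, coding or not, with limma adjusted p = 0.0614 after scaling and 0.435 as deposited, and also without shCTCF replicate 1 (0.0571) or shCTCF replicate 2 (0.0655). Over all tested genes after scaling 1.05% were called, 0.367% higher and 0.679% lower, and as deposited 2.82%, 1.92% higher and 0.905% lower.

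Grik5 (ENSMUSG00000003378, chr7:25009849-25072346, minus strand, GRCm38) encodes the other high-affinity subunit and was far more abundant. It was at 15.8 and 12.7 TPM in shLAC and at 17.7 and 20 TPM in shCTCF. After scaling these were 15.1 and 15.2 against 16.1 and 19.1, so shCTCF replicate 2 lay well above the other 3 libraries. The log2 fold change of 0.20 (SE 0.0790, 95% interval 0.01 to 0.39) did not pass over all genes (limma adjusted p = 0.185). Without shCTCF replicate 2 it was 0.09, and without shCTCF replicate 1 it was 0.31 (limma adjusted p = 0.629 and 0.0641).

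The start regions of this pair are shown because Grik4 was the member that passed and Grik5, its closest functional counterpart, had values above control. Each is 300 bases from RefSeq (GRCm38.p6), from 250 before to 50 after the annotated start, on the gene's own strand, with every CCCTC or its reverse complement GAGGG in capitals. The edge of Grik4 in the gene position given above, 42944493, lies among the bases before its RefSeq start, so the annotations differ there. CCCTC is the repeat after which CTCF is named.
Grik4, chr9:42944322-42944621, minus strand: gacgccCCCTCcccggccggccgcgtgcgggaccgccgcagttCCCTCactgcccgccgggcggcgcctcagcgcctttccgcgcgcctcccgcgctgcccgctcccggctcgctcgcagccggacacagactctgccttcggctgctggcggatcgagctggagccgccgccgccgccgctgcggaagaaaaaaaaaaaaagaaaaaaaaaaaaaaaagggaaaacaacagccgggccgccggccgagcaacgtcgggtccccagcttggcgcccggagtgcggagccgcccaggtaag
Grik5, chr7:25072320-25072619, minus strand: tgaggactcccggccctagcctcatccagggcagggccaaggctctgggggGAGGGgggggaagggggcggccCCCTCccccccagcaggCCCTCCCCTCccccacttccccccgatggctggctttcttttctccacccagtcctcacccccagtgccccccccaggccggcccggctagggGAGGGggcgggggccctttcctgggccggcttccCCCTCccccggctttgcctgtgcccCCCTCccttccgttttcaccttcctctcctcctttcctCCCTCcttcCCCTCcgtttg
The Grik4 window held 2 matches and the Grik5 window 9, of which 7 were CCCTC on the gene's strand. The Grik5 window also takes in the edge of the next gene, so it is not a region of Grik5 alone. Of the other members with a window, Grik3 held 0, Grik2 held 1, and the 2 windows of Neto2 held 1 and 3. Over 32851 windows of the same length in the RefSeq table, 66.0% held at least 1 match on either strand, the median was 1 and 0.256% held 9 or more. The 32851 windows were not matched to those of the members in base composition. A longer core of the CTCF binding motif, also searched on both strands, was in 1.28% of those windows and had 0 matches in the members' windows. Windows were found for 5 of the 7 members (Grik2, Grik3, Grik4, Grik5 and Neto2), and the base composition of the Grik4 and Grik5 windows was 70.0% and 72.0% G or C. These letters describe the sequence and say nothing of binding, which was not measured here.

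None of the 3 subunits that can form channels alone was called. Grik2 (ENSMUSG00000056073, chr10:49094833-49788766, minus strand), the Grik gene with the highest mean level, was at 20.5 and 16.6 TPM in shLAC and at 20.7 and 19.8 TPM in shCTCF. Its groups overlapped as deposited and were apart after scaling, at 19.6 and 20.01 against 18.9 and 18.8. The log2 fold change of Grik2 was -0.07 (95% interval -0.18 to 0.05, limma adjusted p = 0.443).
Grik1 (ENSMUSG00000022935, chr16:87895900-88290265, minus strand), a subunit known in interneurons, was at 6.77 and 5.87 TPM in shLAC and at 7.11 and 7.07 TPM in shCTCF. After scaling its groups overlapped, and the log2 fold change was -0.03 (95% interval -0.18 to 0.13, limma adjusted p = 0.838). In the values as deposited Grik1 and Grik2 had positive log2 fold changes, 0.15 and 0.12, below the median shift of all genes there.
Grik3 (ENSMUSG00000001985, chr4:125490700-125714173, plus strand) was at 3.47 and 2.68 TPM in shLAC and at 3.66 and 3.76 TPM in shCTCF. Its log2 fold change was 0.06 (95% interval -0.10 to 0.22, limma adjusted p = 0.610). For these 3 genes the intervals span 0 and leave room for a fall as far as the lower bound or a rise as far as the upper bound.

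Both auxiliary subunits had somewhat higher values in the knockdown, and neither was called. Neto2 (ENSMUSG00000036902, chr8:85636588-85700924, minus strand) was at 21.7 and 17.0 TPM in shLAC and at 25.6 and 23.8 TPM in shCTCF. Its scaled mean was 20.6 ± 0.163 in shLAC and 23.0 ± 0.429 in shCTCF (SD, n = 2), 112% of control. The log2 fold change of Neto2 was 0.16 (SE 0.0483, 95% interval 0.04 to 0.27, limma adjusted p = 0.114).
Neto1 (ENSMUSG00000050321, chromosome 18, 86394952 to 86506718, plus strand) was at 11.96 and 9.36 TPM in shLAC and at 13.9 and 12.8 TPM in shCTCF. Its log2 fold change was 0.12 (SE 0.0528, 95% interval -0.00 to 0.25, limma adjusted p = 0.218). In the annotation, exons of Grik4 and Neto2 overlap only small RNA genes listed at 0 in all 4 libraries. An antisense gene overlaps 219 nt of Neto1 exons, and strand use in the authors' counting is not given in the sources used here.

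**Figure D2:**
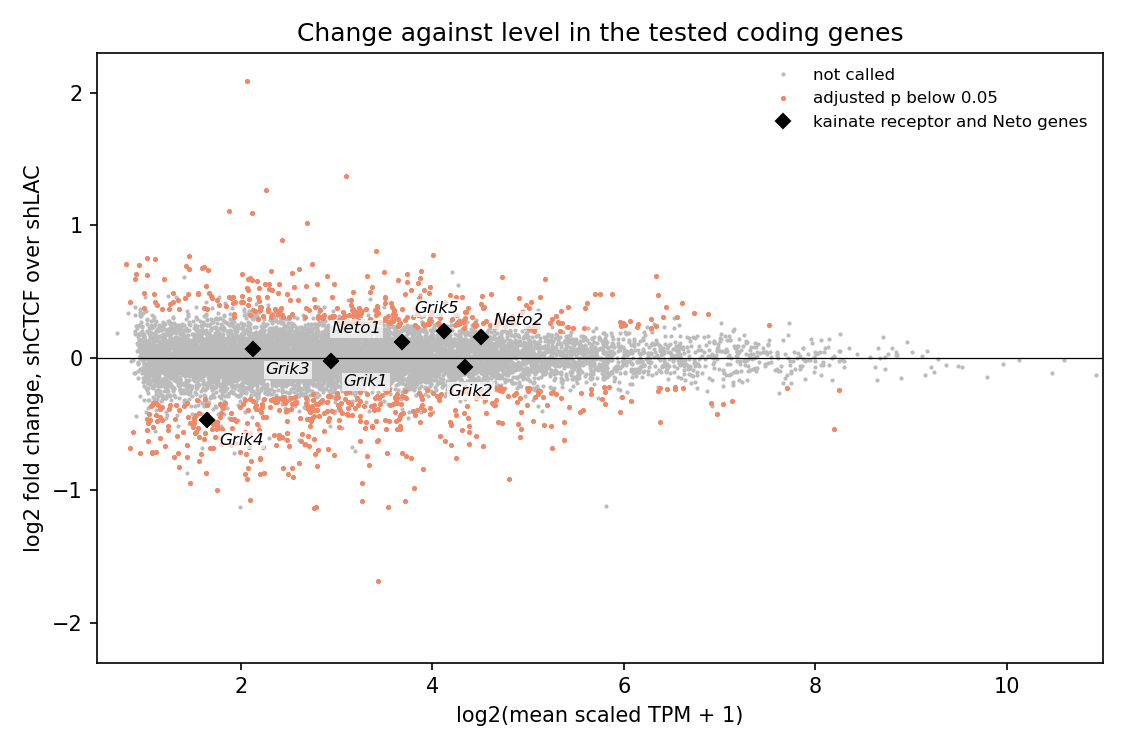
log2 fold change (shCTCF over shLAC) against log2(mean scaled TPM + 1) for the 11139 coding genes of the fit, with called genes in orange, the rest in grey and the 7 members as black diamonds; 6 genes lie outside the plotted range. Grik4 lies at -0.47 at the low end of the levels, and the other members lie between -0.07 and 0.20.

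Ratios within a library do not depend on scaling, and the pair of high-affinity subunits was compared this way. Grik4 had the lowest and Grik5 the highest log2 fold change of the members, so their ratio restates the values given above. The Grik5 to Grik4 ratio was 5.81 and 5.73 in shLAC and 10.1 and 11.6 in shCTCF, so the groups did not overlap. The mean ratio was 5.77 ± 0.0542 in shLAC and 10.8 ± 1.11 in shCTCF (SD, n = 2), 1.88-fold higher. Grik4 made up 14.7% and 14.9% of the Grik4 and Grik5 sum in shLAC and 9.04% and 7.92% in shCTCF. The scaled sum of the pair, most of it Grik5, overlapped between groups, at 17.7 and 17.9 in shLAC and 17.7 and 20.7 in shCTCF. Among all 5 Grik genes, Grik4 held 5.52% of the summed TPM in each shLAC library and 3.46% and 3.29% in shCTCF. The share of Grik5 was 32.1% and 31.6% in shLAC and 34.8% and 38.2% in shCTCF, and that of Grik2 41.7% and 41.5% against 40.6% and 37.8%. The summed scaled TPM of the 5 genes was 47.6 ± 0.797 in shLAC and 48.2 ± 2.45 in shCTCF, with overlapping groups. The Neto2 to Neto1 ratio stayed between 1.81 and 1.86 in all 4 libraries. The Neto sum divided by the Grik sum was 0.682 and 0.658 in shLAC and 0.775 and 0.700 in shCTCF. For each ratio whose groups lay apart, the exact 2-sided permutation test gave p = 0.33, the smallest that 2 against 2 libraries allow, so these ratios are descriptions.

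**Figure D3:**
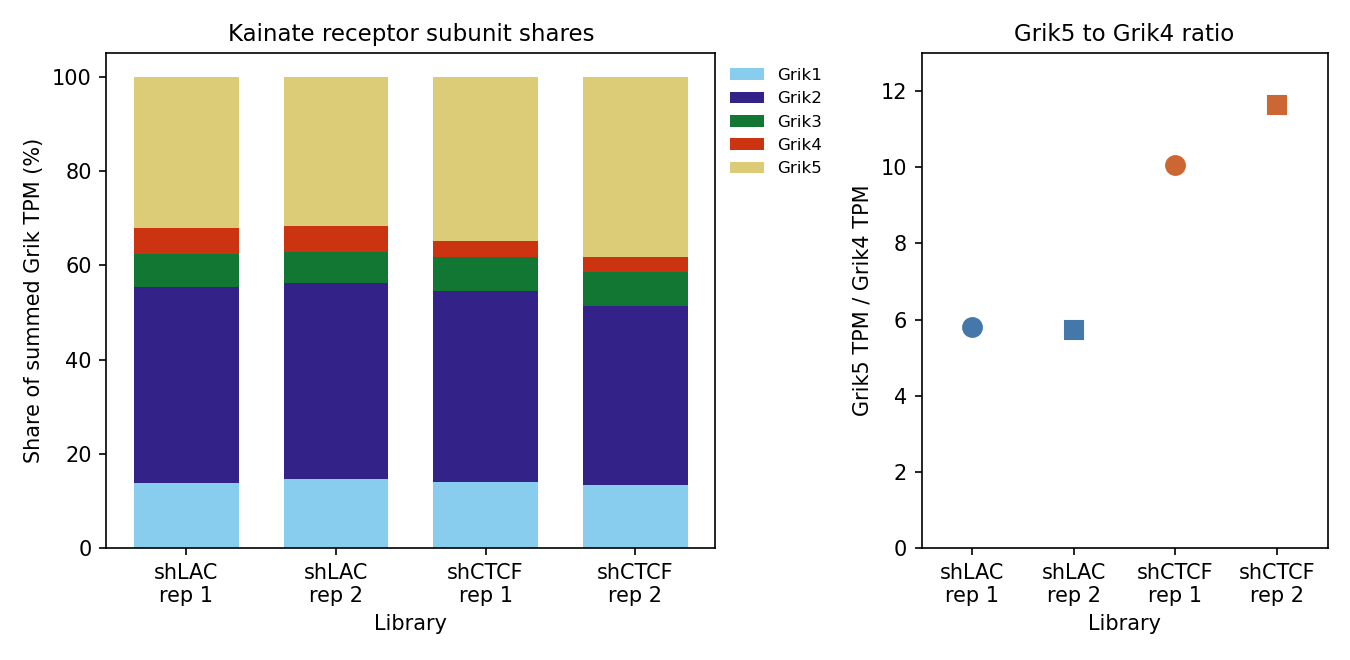
Left, the share (%) of each Grik gene in the summed Grik TPM of each library as stacked bars; right, the Grik5 to Grik4 TPM ratio in each library, with shLAC in blue and shCTCF in orange. The Grik4 band is 5.52% in both controls and 3.46% and 3.29% in shCTCF, and the ratio is 5.81 and 5.73 in the controls and 10.1 and 11.6 in the knockdown.

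The other glutamate receptor genes give the setting for these values. Of 13 further ionotropic subunit genes 10 were tested, 1 rose, 0 fell and 9 did not pass, with a median log2 fold change of 0.05. The riser was Gria3, an AMPA receptor subunit, at 22.3 and 14.7 TPM in shLAC and at 32.3 and 26.7 TPM in shCTCF (log2 fold change 0.48, SE 0.101, limma adjusted p = 0.0426). Among 10 auxiliary subunits of AMPA receptors, the counterparts of the Neto proteins, 1 rose, 2 fell and 7 did not pass, with a median of 0.01. Over all 11139 genes of the fit 2.83% were called higher and 3.68% lower. Gsg1l fell by 0.34 and Cacng7 by 0.28 on the log2 scale, while Cacng8 rose by 0.30 (limma adjusted p = 0.0248, 0.0305 and 0.0421). None of these 4 calls held over all 12816 genes after scaling or as deposited. Without shCTCF replicate 1 none held, without shCTCF replicate 2 only that of Gria3, and without shLAC replicate 2 that of Cacng8 was lost.

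**Figure D4:**
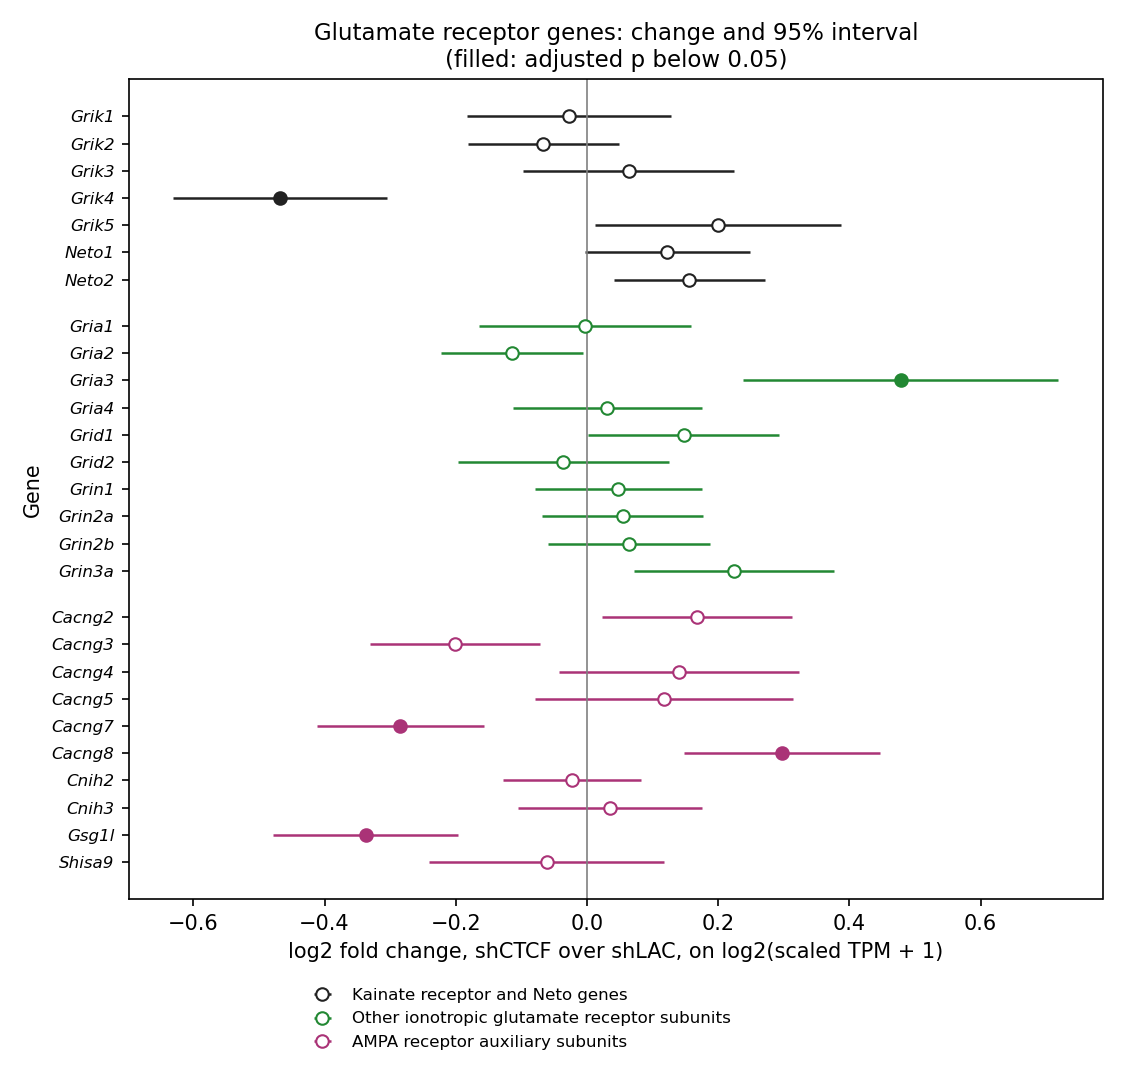
log2 fold change (shCTCF over shLAC, on log2(scaled TPM + 1)) with 95% intervals from limma for the 7 members, 10 other ionotropic subunit genes and 10 AMPA receptor auxiliary subunit genes; filled points passed at an adjusted p below 0.05. Of the members, Grik4 is filled and lies at -0.47, and the intervals of Grik1, Grik2, Grik3 and Neto1 cross 0.

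Of the 21 listed partners of kainate receptors, which bind, anchor, edit, sumoylate or phosphorylate the subunits, 19 were tested and 0 were called by limma, with a median log2 fold change of 0.02. The most abundant were Snap25, a membrane fusion protein reported to bind the Grik5 product, and Ctnnb1, which links cadherins to the cytoskeleton. Snap25 had scaled values of 261 and 263 in shLAC and 246 and 239 in shCTCF (log2 fold change -0.11, limma adjusted p = 0.217). Ctnnb1 had scaled values of 130 and 132 in shLAC and 143 and 145 in shCTCF (log2 fold change 0.14, limma adjusted p = 0.129). At an unadjusted p below 0.05, 4 partners differed, all with higher values in shCTCF: Adarb1, the enzyme that edits Grik1 and Grik2 transcripts, the kinase gene Camk2a, the N-cadherin gene Cdh2, and Ctnnb1. They were picked out after their values were seen. Their limma adjusted p lay between 0.0607 and 0.167, and 23.9% of all tested genes had an unadjusted p below 0.05.

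In bulk RNA, fewer cells of a type and less RNA per cell cannot be told apart. Neurons of both kinds were present: the summed scaled TPM of 10 excitatory markers was 140 and 136 in shLAC and 153 and 148 in shCTCF, and that of 14 inhibitory markers was 292 and 281 against 291 and 292. Of 9 tested excitatory markers 0 were called by limma, 4 had a positive and 5 a negative log2 fold change, and the median was -0.07. Slc17a7, a vesicular glutamate transporter, had scaled values of 75.4 and 67.8 in shLAC and 88.1 and 83.1 in shCTCF (limma adjusted p = 0.0655). Without it the other 8 tested excitatory markers summed to 63.8 and 67.3 in shLAC and 64.0 and 64.3 in shCTCF, with overlapping groups. Neurod6, a transcription factor of excitatory neurons, had scaled values of 25.3 and 27.4 in shLAC and 25.7 and 24.4 in shCTCF (limma adjusted p = 0.528). Of 12 tested inhibitory markers Slc32a1, which loads GABA into vesicles, rose by 0.36 on the log2 scale (limma adjusted p = 0.0417). Calb2, the calcium-binding protein calretinin, fell by 0.23 (limma adjusted p = 0.0457). Among these 12 markers 7 had a positive and 5 a negative log2 fold change, and the median was 0.07. The groups lay apart and higher for 6 markers, and apart and lower for 2. Over all tested coding genes these shares were 27.6% and 27.2%, and 2.83% were called higher and 3.68% lower.
Astrocyte markers mostly had lower values in shCTCF. Their sum over 9 genes was 136 and 114 in shLAC and 110 and 87.8 in shCTCF, lower in replicate 2 of both groups. Of the 9 markers, 8 had a negative log2 fold change, and the median was -0.23. The groups lay apart and lower for 3 markers, and apart and higher for 1. Over all tested coding genes these shares were 27.2% and 27.6%. Aqp4, the astrocyte water channel, fell by 1.07 and Slc1a3, a glial glutamate transporter, by 0.52 on the log2 scale (limma adjusted p = 0.0120 and 0.0170). Their part in the Grik4 result was not tested. Of 8 tested oligodendrocyte lineage markers 0 were called by limma, with sums of 87.7 and 74.0 in shLAC and 88.3 and 79.8 in shCTCF; Olig1 and Pdgfra, the most abundant, had overlapping groups. Of 5 proliferation markers, among them Nes and Top2a, 0 were called by limma. Microglial, endothelial and fibroblast lists summed to at most 3.19 scaled TPM in any library, with Cldn5 at 0 throughout. Cd68 was not called (limma adjusted p = 0.247), and Dcn, the one tested fibroblast marker, fell by 0.48 (limma adjusted p = 0.0182). Of these 5 marker calls, 0 held over all tested genes after scaling and Aqp4 held as deposited. All 5 held without shLAC replicate 1, the call of Calb2 was lost without shLAC replicate 2, those of Calb2 and Slc32a1 without shCTCF replicate 1, and those of Calb2, Slc32a1 and Dcn without shCTCF replicate 2.

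By root mean square difference of centred log2(scaled TPM + 1) over the 4 libraries, the genes most like Neto2, the member with the highest level, were Uggt2, Serac1 and Glrx5. Their differences from Neto2 were 0.00652, 0.00672 and 0.00703 log2 units over 11139 genes compared. None of the 3 was called by limma (adjusted p from 0.128 to 0.215).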

How the data were processed

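RNA-seq was made from 4 libraries, 2 per group, assigned by their titles. Total RNA was extracted with TRIzol and sequenced as paired reads, per the labels' protocols. The authors deposited 1 table of TPM per library, with 2 decimals and a sum of 1000000; per the submitters' processing notes, RSEM 1.2.28, CASAVA and the build mm10 were used. Which aligner, gene annotation release and strand setting were used was not given in the sources used here. As TPM is a share, abundant RNA in a library lowers all its other genes.

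Symbols and positions came from GENCODE vM21 (GRCm38, the mm10 assembly), which matched 37060 of 37437 identifiers. The fit held protein-coding genes with at least 300 nt of merged exons, not predicted loci named Gm, that reached 1 TPM or more in 2 or more libraries. Values were divided by median-ratio factors, and log2(scaled TPM + 1) was fitted in R 4.3.3 using limma 3.58.1 with its prior trended on level and no covariate. The method was tested on simulated data. Those had independent noise and no difference in scale between libraries, unlike the data here, and the outcome is not reported here. Sums and ratios were examined with an exact permutation test.

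The members, the gene lists and the choice of fit were made with earlier results of these data known. The rule for named genes took all members, Ctcf, and from each list up to 4 called genes by size of change, or, where none passed, its 2 most abundant, and 3 genes most like the member with the highest level. Alternatives were other scalings, gene sets, pseudocounts, filters and priors, a block on replicate number, and leaving out each library in turn. Of the 21 listed partners 1 was not analysed here and 1 more was under the filter. The values of the genes next to Grik5 are not reported here.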

Additional observations from a re-analysis of the deposited data

How the results depend on the processing

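The count of members called lower, 1 in the main analysis, was 0 as deposited (over all genes and over coding genes), after scaling over all genes past the filter, and with no expression filter, and 0 to 1 with 1 library left out; the cause was not tested. The count of members called higher was 0 in all 14 alternatives. Grik1 turned to 0.15 as deposited (both gene sets) and to 0.028 without shLAC replicate 2 (-0.081 to 0.028 with 1 library left out), and Grik2 to 0.12 as deposited, in no case called; as deposited the median of all genes was 0.17. The log2 difference of the summed Grik TPM was 0.02, 0.22 as deposited, and -0.036 to 0.068 with 1 library left out, below 0 without shLAC replicate 1 (-0.0011) or shCTCF replicate 2. That of the Neto sum was 0.15 and 0.35 as deposited. Without 1 library the log2 Grik5 to Grik4 difference ranged from 0.80 to 1.01, and Ctcf was called in all 14 alternatives. A group left with 1 library was taken to vary like the other.

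In the deposited scale the prior fitted by limma had infinite degrees of freedom, and a gene's own spread did not count there. With a replicate block, the genes called went from 725 to 1406, Grik4 was called (limma adjusted p = 0.00706) and no other member was. Same-numbered libraries deviated together over genes (r = 0.251), but with 2 pairs and no label tying them the numbers are not taken to pair the samples. Over all genes past the filter after scaling, 134 genes were called. Counts of all genes called also differed with no filter (245), as deposited over coding genes (156), and without shLAC replicate 1 (1148), shLAC replicate 2 (1103), shCTCF replicate 1 (366) or shCTCF replicate 2 (221). As deposited over all genes 68.0% of the calls were higher, against 43.4% in the main analysis. Unknown depth limits what can be said of Grik4, the lowest member.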

Other observations

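Inside an intron of Grik2, on the same strand, lies the sense-intronic gene Gm26543 (chr10:49219422-49225653, GRCm38), which shares no exon bases with Grik2. Reads of unspliced Grik2 RNA from that stretch cannot be told apart from reads of Gm26543, even with strand. Gm26543 was at 5.02 and 4.55 TPM in shLAC and at 6.91 and 7.0 TPM in shCTCF. Grik2 itself was at 20.5 and 16.6 TPM against 20.7 and 19.8 TPM. After scaling Gm26543 was at 4.82 and 5.47 against 6.3 and 6.66, and Grik2 at 19.6 and 20.01 against 18.9 and 18.8. Both knockdown values of Gm26543 lay above both controls on either scale. After scaling the same held for 27.6% of the tested coding genes, a set that leaves out Gm26543. Over all tested genes after scaling, the log2 fold change of Gm26543 was 0.29 (SE 0.0747, limma adjusted p = 0.159), which did not pass. It was looked at after its values were seen.

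The nearest gene of the fit on each side of each member gave 14 neighbours, chosen by position after the members' values were seen. Of these 1 rose and 0 fell, and 8 had a positive log2 fold change. Over all 11139 genes of the fit 2.83% were called higher and 3.68% lower. The riser was Cbln2, a secreted synapse organizer 204 kb from Neto1, at scaled values of 3.47 and 3.01 in shLAC and 4.27 and 4.68 in shCTCF (log2 fold change 0.37, limma adjusted p = 0.0457). Its call under the alternatives is not reported here. On either side of Grik4, Tbcel, 10.3 kb away, had a log2 fold change of 0.03 (limma adjusted p = 0.766) and Arhgef12, 19.3 kb away, one of -0.15 (limma adjusted p = 0.133).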
